A study of Mus musculus with 4 samples.

Results

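From the 54149 genes in the table of liver transcript levels, 9 were taken by gene name, a chosen subset of those that encode enzymes of glycogen metabolism or subunits that bring a phosphatase to glycogen: Ppp1r3b, Ppp1r3c, Ppp1r3g, Gys2, Pygl, Gbe1, Gyg, Ugp2 and Phka2. They were chosen with their levels in these samples known, so their values describe the samples and no test is drawn from them. The samples were livers of adult female mice of the C57BL/6 x 129S4/SvJae strain. A knockout group (KO; genotype Utx KO) lacked Utx, also called Kdm6a, a histone H3 lysine 27 demethylase, in the liver, and the control group was wild-type (WT) and matched for age and sex. All mice of both groups had fasted for 16 h and then received 300 mg/kg acetaminophen (APAP) into the peritoneal cavity, so neither the drug nor the fast has a control here. Each group had 2 libraries, and each library was a pool of liver RNA from 2 mice. Not given in the sources used here are the promoter that drove the deletion, whether WT mice carried floxed alleles, and the time from dose to sampling.

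Glycogen is the branched store of glucose in hepatocytes. Glycogenin primes it, glycogen synthase extends it from UDP-glucose, and the branching enzyme adds its branch points. Glycogen phosphorylase releases glucose 1-phosphate from it after phosphorylase kinase has activated the enzyme. Protein phosphatase 1 opposes that kinase and activates the synthase, and the Ppp1r3 proteins hold the phosphatase on the glycogen particle. A fasted liver has used much of its glycogen, and the precursor UDP-glucose also supplies the glucuronic acid with which the liver conjugates acetaminophen.

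The clearest contrast among the 9 genes lay between 2 targeting subunits. Ppp1r3b was 5.91-fold higher and Ppp1r3c 1.98-fold lower by mean level in the KO pools. The levels of Gbe1, Gyg and Ugp2 were 1.31, 1.47 and 1.53 times the WT mean, with no overlap between the groups. For Gys2, Pygl and Phka2 the 2 groups overlapped. Levels are given as FPKM, read fragments scaled by gene length and by library size, which allows levels of different genes to be set side by side.

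The bases upstream of 3 of these genes are shown first, because they stand for the 2 directions seen: Ppp1r3c, which was lower in the KO pools, and Ugp2 and Gbe1, which were higher. They are the RefSeq promoters on GRCm38.p6, shown only up to the start of the gene, as RefSeq or the table places it, whichever is farther upstream. Capitals mark ACGTG or its reverse complement, the core of hypoxia response elements.
Ppp1r3c, chr19:36736654-36736854, minus strand: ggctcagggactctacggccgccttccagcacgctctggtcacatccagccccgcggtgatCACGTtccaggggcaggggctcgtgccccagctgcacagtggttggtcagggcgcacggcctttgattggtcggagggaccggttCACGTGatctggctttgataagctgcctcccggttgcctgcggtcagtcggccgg
Ugp2, chr11:21371268-21371517, minus strand: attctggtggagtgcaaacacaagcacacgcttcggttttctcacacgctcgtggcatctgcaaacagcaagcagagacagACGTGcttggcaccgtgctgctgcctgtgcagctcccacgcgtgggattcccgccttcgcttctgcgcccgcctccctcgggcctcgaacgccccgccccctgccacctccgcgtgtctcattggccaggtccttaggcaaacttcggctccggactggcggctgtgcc
Gbe1, chr16:70313699-70313948, plus strand: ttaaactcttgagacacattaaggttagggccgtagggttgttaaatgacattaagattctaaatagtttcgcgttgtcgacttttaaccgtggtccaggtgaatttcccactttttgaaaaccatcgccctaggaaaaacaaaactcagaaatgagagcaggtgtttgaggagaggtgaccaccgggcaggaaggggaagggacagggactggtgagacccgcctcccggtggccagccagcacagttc

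Of the 9 genes, 7 matched the RefSeq promoter table by symbol, with 8 promoters in all, and Ppp1r3b and Gys2 have no entry. In the 250 bases before the RefSeq start, on both strands, ACGTG was found for 4 genes: Ppp1r3c, Ppp1r3g, Pygl and 1 of the 2 starts of Ugp2. For Ppp1r3g and Pygl that start lies inside the span of the gene given below, so their matches are not upstream of the whole gene. The same search found it in 16.6% of the 32851 promoters in the table. The capitals in Ppp1r3c lie at bases 189 to 185 and 104 to 99 before the RefSeq start. The second of these spells CACGTG, the palindromic E-box, which contains ACGTG on each strand and is found in 6.02% of promoters. TGANTCA, the AP-1 site, and GTAAACA, a forkhead site, were found in 6.75% and 3.17% of promoters and in no promoter of these genes. TGACGT, the start of the cyclic AMP response element, was found in 6.47% of promoters and once here. It lay at bases 40 to 35 before the internal RefSeq start of Ppp1r3g, overlapping that gene's ACGTG at 38 to 34. These are letter matches and were not tied to any binding or to the levels below.

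Ppp1r3b encodes the subunit also called GL, the main phosphatase-targeting subunit of liver glycogen. It lies at GRCm38 chromosome 8, 35375739 to 35388139, on the plus strand (ENSMUSG00000046794). Its level was 3.19 and 4.37 FPKM in WT pools 1 and 2 and 21.0 and 23.6 FPKM in KO pools 1 and 2. Both KO pools were far above both WT pools, and WT pool 2 was 1.37 times WT pool 1. The values rest on 335 and 427 reads in the WT and 2331 and 2514 in the KO pools. The means were 3.78 ± 0.835 and 22.3 ± 1.81 FPKM (SD, n = 2 pools in each group, as for every mean below). On the scale of log2(FPKM + 0.5), on which all log2 differences are given as knockout minus WT, Ppp1r3b stood at 2.43 (SE 0.17, 95% interval 1.97 to 2.88). Leaving out any 1 library gave a difference between 2.23 and 2.63.

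Ppp1r3c encodes the subunit also called protein targeting to glycogen, which scaffolds the phosphatase with its glycogen-metabolizing substrates in many tissues. It lies at chromosome 19, 36731737 to 36736653, on the minus strand (ENSMUSG00000067279). The WT pools had 21.4 and 21.9 FPKM and the KO pools 10.4 and 11.5 FPKM. The 4 values formed 2 tight pairs that did not overlap. The means were 21.6 ± 0.313 and 10.9 ± 0.807 FPKM, and the log2 difference was -0.96 (SE 0.11, 95% interval -1.24 to -0.67). Without any 1 library it ran from -1.03 to -0.88.

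Ppp1r3g, which encodes a targeting subunit known from the fasted liver, was the scarcest of the 9 (chromosome 13, 35958839 to 35970388, plus strand, ENSMUSG00000050423). It had 0.417 and 1.30 FPKM in the WT pools and 0.167 and 0.303 FPKM in the KO pools, from 19, 55, 8 and 14 reads. The knockout values were both below the WT values, but WT pool 2 alone was 3.11 times pool 1. The group difference, -0.81 on the log2 scale, was smaller than the gap of 0.97 between the 2 WT pools. Its mean of 0.546 FPKM was under the minimum of 1 FPKM for the fit over all genes, so it has no SE.

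**Figure D1:**
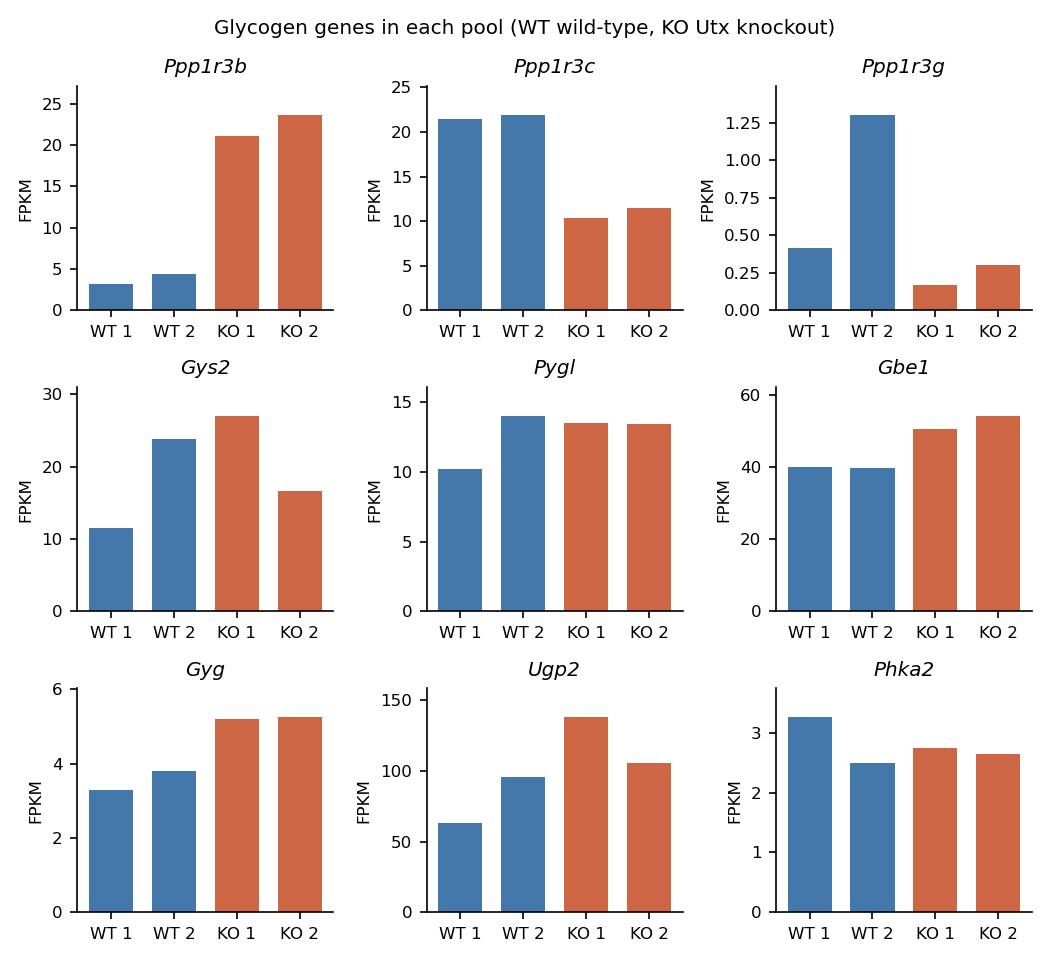
Level in FPKM (y axis, from 0, with its own scale in each panel) of the 9 glycogen genes in each of the 4 pools (bars; blue, WT; orange, KO). Ppp1r3b is at 3.19 and 4.37 FPKM in WT and 21.0 and 23.6 FPKM in KO pools, Ppp1r3c runs the other way, and the bars of Gys2, Pygl and Phka2 overlap between groups.

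The Ppp1r3 family has 7 members in the table, and the transcripts of these subunits were differently made up in the 2 groups. Ppp1r3c was 76.4% and 71.99% of the summed Ppp1r3 FPKM in the WT pools and 29.5% and 28.6% in the KO pools. Ppp1r3b was 11.4% and 14.4% of the sum in WT and 59.9% and 58.7% in KO pools. The ratio of Ppp1r3b to Ppp1r3c was 0.149 and 0.200 in the WT pools and 2.03 and 2.05 in the KO pools, so the order of the pair was opposite in the 2 groups. The sum over all 7 subunits was 28.1 and 30.4 FPKM in WT and 35.1 and 40.2 FPKM in KO pools, a smaller shift than that of either subunit. Ppp1r3b and Ppp1r3c together made up between 86.4% and 89.4% of the sum in each pool.

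Of the remaining subunits Ppp1r3e had the largest share, 9.16% and 6.76% of the sum in WT and 9.30% and 10.8% in KO pools. In WT pool 1 this was close to the 11.4% of Ppp1r3b. Ppp1r3e, a targeting subunit that is not among the 9, was at 2.31 ± 0.365 FPKM in WT and 3.81 ± 0.766 in KO pools and did not pass the test (log2 difference 0.61, limma adjusted p = 0.135). Ppp1r3a, the subunit of striated muscle, reached at most 0.137 FPKM. Ppp1r3d and Ppp1r3f reached at most 0.467 and 0.185 FPKM. None of the last 3 had enough signal for the fit.

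**Figure D2:**
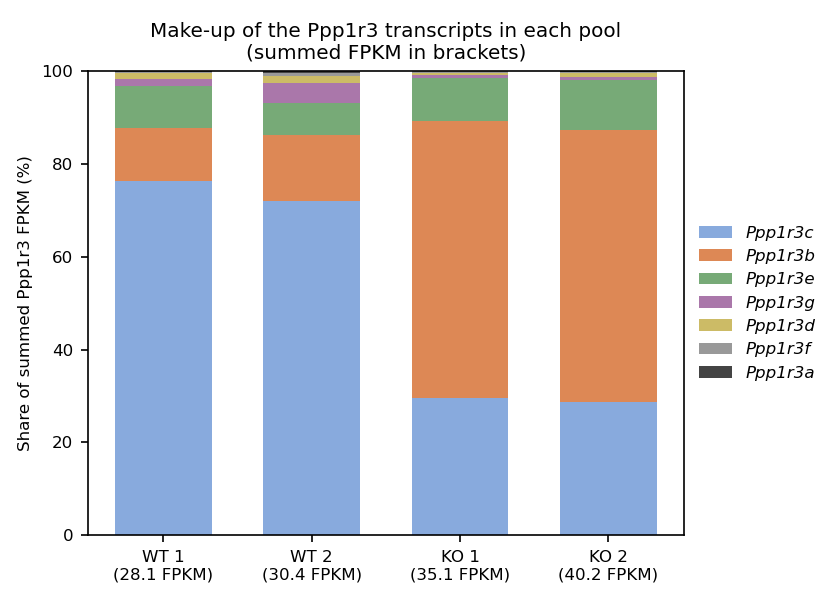
Share in percent (y axis) of each Ppp1r3 gene in the summed FPKM of the 7 family members, for each pool (stacked bars, the sum in brackets). Ppp1r3c fills 76.4% and 71.99% of the WT bars, and Ppp1r3b 59.9% and 58.7% of the knockout bars.

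Among the synthesis enzymes, Ugp2 and Gbe1 had the highest levels of the 9 genes. Ugp2 encodes UDP-glucose pyrophosphorylase, which makes UDP-glucose (chromosome 11, 21321138 to 21371201, minus strand, ENSMUSG00000001891). It was at 63.3 and 95.8 FPKM in the WT pools and at 138 and 106 FPKM in the KO pools. The lower KO pool was only just above the higher WT pool. The log2 difference was 0.63 (SE 0.26, 95% interval -0.05 to 1.30), close to the gap of 0.59 between the WT pools. It was 0.33 without WT pool 1 and 0.92 without WT pool 2.

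Gbe1 encodes the glycogen branching enzyme (chromosome 16, 70313949 to 70569716, plus strand, ENSMUSG00000022707). Its WT pools were nearly equal at 39.9 and 39.7 FPKM, and its KO pools were at 50.5 and 54.1 FPKM. The groups did not overlap, and the log2 difference of 0.39 (SE 0.11, 95% interval 0.11 to 0.67) was larger than the gap within either group. Gyg encodes glycogenin, the self-glucosylating primer (chromosome 3, 20122084 to 20155317, minus strand, ENSMUSG00000019528). It was at 3.31 and 3.80 FPKM in WT and at 5.19 and 5.25 FPKM in KO pools, from 131 to 217 reads a pool. Its log2 difference was 0.50 (SE 0.12, 95% interval 0.18 to 0.82), again larger than the gaps between pools.

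Gys2, the liver form of glycogen synthase, is activated by the phosphatase that the targeting subunits hold on glycogen (chromosome 6, 142422613 to 142473109, minus strand, ENSMUSG00000030244). It was at 11.5 and 23.8 FPKM in the WT pools and at 27.0 and 16.6 FPKM in the KO pools. The lowest and the second highest of the 4 values were both WT. The 2 WT pools differed 2.07-fold and the 2 KO pools 1.63-fold, while the group means, 17.6 ± 8.70 and 21.8 ± 7.35 FPKM, differed 1.23-fold. The log2 difference was 0.34 (SE 0.42, 95% interval -0.76 to 1.44), and it turned to -0.17 without WT pool 1. Knockout pool 1 also had more Ugp2 than KO pool 2, and WT pool 2 more than pool 1, as for Gys2.

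For both breakdown enzymes the groups overlapped. Pygl, the liver form of glycogen phosphorylase (chromosome 12, 70190811 to 70231488, minus strand, ENSMUSG00000021069), was at 10.2 and 14.0 FPKM in WT and at 13.5 and 13.4 FPKM in KO pools. Wild-type pool 1 was low and the other 3 values lay close together. Its log2 difference was 0.16 (SE 0.17, 95% interval -0.30 to 0.62) and -0.06 without WT pool 1. Phka2, the liver form of the regulatory alpha subunit of phosphorylase kinase (chromosome X, 160502166 to 160598878, plus strand, ENSMUSG00000031295), was at 3.26 and 2.49 FPKM in WT and at 2.75 and 2.64 FPKM in KO pools. Both knockout values lay between the 2 WT values. The log2 difference was -0.07 (SE 0.16, 95% interval -0.50 to 0.36) and 0.09 without WT pool 1.

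The ratio of Gys2 to Pygl, the synthase to the phosphorylase, was 1.13 and 1.70 in the WT and 2.00 and 1.24 in the KO pools, so the 2 groups overlapped. In both groups the order by mean level began with Ugp2 and Gbe1 and ended with Gyg, Phka2 and Ppp1r3g. Between them the WT order was Ppp1r3c, Gys2, Pygl and Ppp1r3b, and the knockout order was Ppp1r3b, Gys2, Pygl and Ppp1r3c. Neighbours whose pools overlapped were Ppp1r3c with Gys2, Gys2 with Pygl and Ppp1r3b with Gyg in WT, and Ppp1r3b with Gys2 in KO.

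**Figure D3:**
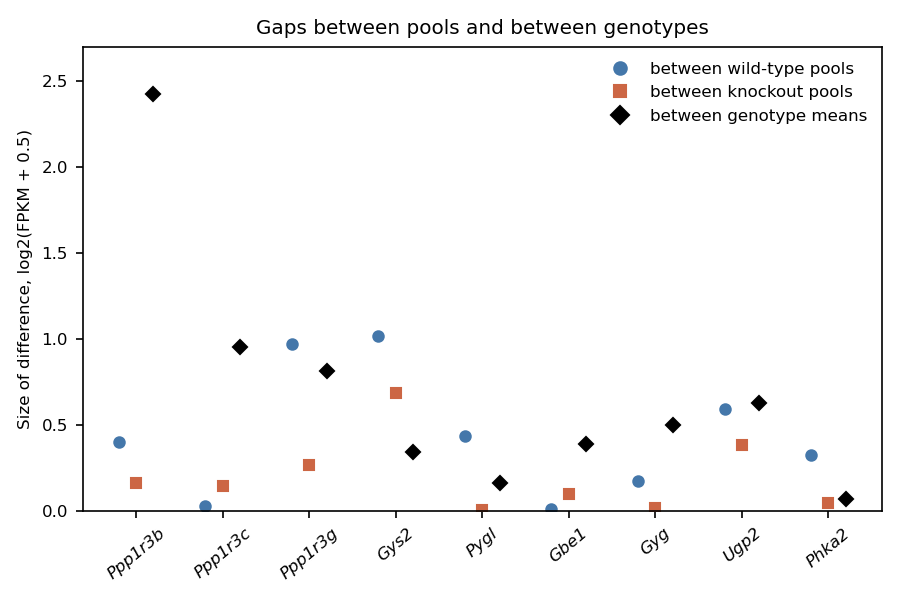
Size of the difference in log2(FPKM + 0.5) (y axis) between the 2 WT pools (circles), between the 2 KO pools (squares) and between the group means (diamonds) for each of the 9 genes. For Ppp1r3b, Ppp1r3c, Gbe1 and Gyg the diamond lies well above both other marks, for Ugp2 it lies just above, and for Gys2 the WT gap of 1.02 exceeds the group difference of 0.34.

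In limma's fit over all genes, 8 of the 9 had the mean of 1 FPKM needed to enter, and 2 of them had an adjusted p under 0.05, Ppp1r3b as higher and Ppp1r3c as lower. Over all 11900 genes tested 4.74% had one, 1.6% as higher and 3.14% as lower. Since these genes were chosen from this contrast, nothing is read from that count. Of the 9 genes, the groups did not overlap for 6, with the knockout higher in 4 and lower in 2. Without Ppp1r3g, which did not enter the fit, the knockout was higher in 4 and lower in 1 of 8. Among all genes tested the groups did not overlap for 61.5%. The median log2 difference of the 8 was 0.37, beside 0.01 over all genes tested. Because of how the genes were chosen, nothing is read from the overlap or from this median either. Leaving out a library leaves 1 pool in a group, which is then assumed to vary like the other group. With 3 libraries the call of Ppp1r3c was lost whichever was left out, and that of Ppp1r3b was lost without WT pool 2 or KO pool 1.

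The pathway was followed through 55 other genes, of which 46 entered the fit. Of these, 2 rose, 1 fell and 43 were not past the threshold, and their median log2 difference was 0.09. Beside them, 4.74% of all genes tested passed. Their groups did not overlap for 20 genes higher and 8 lower in the KO pools, beside 31.6% and 29.9% of all genes tested.

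A gene of glucose release had the lowest adjusted p of the 3 genes past the threshold. Slc2a2, the glucose transporter GLUT2 of the hepatocyte membrane, rose from 12.9 and 13.2 FPKM in the WT pools to 39.3 and 30.3 FPKM in the KO pools. Its log2 difference was 1.37 (SE 0.16, limma adjusted p = 0.0315), with both KO pools above both WT pools. The call was lost without WT pool 1, WT pool 2 or KO pool 1, at limma adjusted p of 0.0852, 0.0791 and 0.0825, and kept in 12 of 16 alternatives. Slc37a4, which carries glucose 6-phosphate into the endoplasmic reticulum, was at 32.9 ± 1.55 and 70.8 ± 16.6 FPKM and just missed the threshold (limma adjusted p = 0.0540). It passed in 4 of 16 alternatives, among them the fit of protein-coding genes alone. G6pc, the glucose 6-phosphatase that Slc37a4 feeds, was at 23.0 and 24.3 FPKM in WT and at 5.62 and 23.2 FPKM in KO pools. KO pool 1 alone was low, and G6pc passed as lower without KO pool 2 (log2 difference -1.98, limma adjusted p = 0.0322) but stood at -0.03 without KO pool 1.

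A further call was close to the threshold. Galk1, the galactokinase that brings galactose toward UDP-glucose, rose from 41.0 ± 3.43 to 74.7 ± 8.93 FPKM (limma adjusted p = 0.0498), a call lost in 8 of 16 alternatives, among them leaving out any 1 library. Gcgr, the glucagon receptor, was at 61.8 ± 6.81 and 89.5 ± 5.20 FPKM and did not pass (limma adjusted p = 0.0941).

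No other gene of glycogen synthesis or breakdown passed. Gys1, the muscle form of the synthase, was at 0.818 ± 0.0304 and 1.18 ± 0.0495 FPKM (limma adjusted p = 0.332). Gys2 was therefore between 13.6 and 29.9 times Gys1 per length in each pool. Pgm1, as the table names it, was at 15.2 ± 3.47 and 9.09 ± 1.06 FPKM (limma adjusted p = 0.112). Which of the genes named Pgm1 and Pgm2 here serves glycogen was not settled, so this level is not read as that of the glycogen enzyme. Pgm2, on chromosome 4 where this Pgm1 is on chromosome 5, was listed with 1 read in WT pool 1 and 0 in the other pools. Why so few reads were counted was not tested, so the transcript is not called absent.

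The partners of Phka2 in phosphorylase kinase, Phkb and Phkg2, were at 2.04 ± 0.263 and 3.499 ± 0.154 FPKM and at 2.40 ± 0.405 and 3.69 ± 0.626 FPKM. Neither passed (limma adjusted p = 0.0764 and 0.156), although Phkb did so in 2 of 15 alternatives. Pygb, the brain form of the phosphorylase, was at 1.47 ± 0.402 and 2.46 ± 0.370 FPKM (limma adjusted p = 0.176), and Pygl was between 4.93 and 11.7 times Pygb per length.

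For 2 catalytic subunits of the phosphatase itself, the group means lay within 1 FPKM of each other. Ppp1cb was at 10.8 ± 0.908 and 11.3 ± 0.697 FPKM and Ppp1cc at 18.7 ± 0.238 and 19.1 ± 0.0999 FPKM, with 95% intervals of the log2 difference from -0.25 to 0.37 and from -0.23 to 0.28. Ppp1ca was listed at 19.4, 2.17, 1.75 and 8.50 FPKM, and its pools differed too widely to be compared. Of the lysosomal glycogen genes, Gaa, the acid glucosidase, was at 30.6 ± 1.43 and 34.5 ± 1.36 FPKM, and Stbd1, a glycogen-binding protein, at 34.2 ± 1.70 and 33.1 ± 1.89 FPKM, and neither passed (limma adjusted p = 0.358 and 0.801). Ugdh, which oxidizes UDP-glucose to UDP-glucuronic acid, was at 75.3 ± 8.36 and 95.4 ± 7.76 FPKM (limma adjusted p = 0.207).

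**Figure D4:**
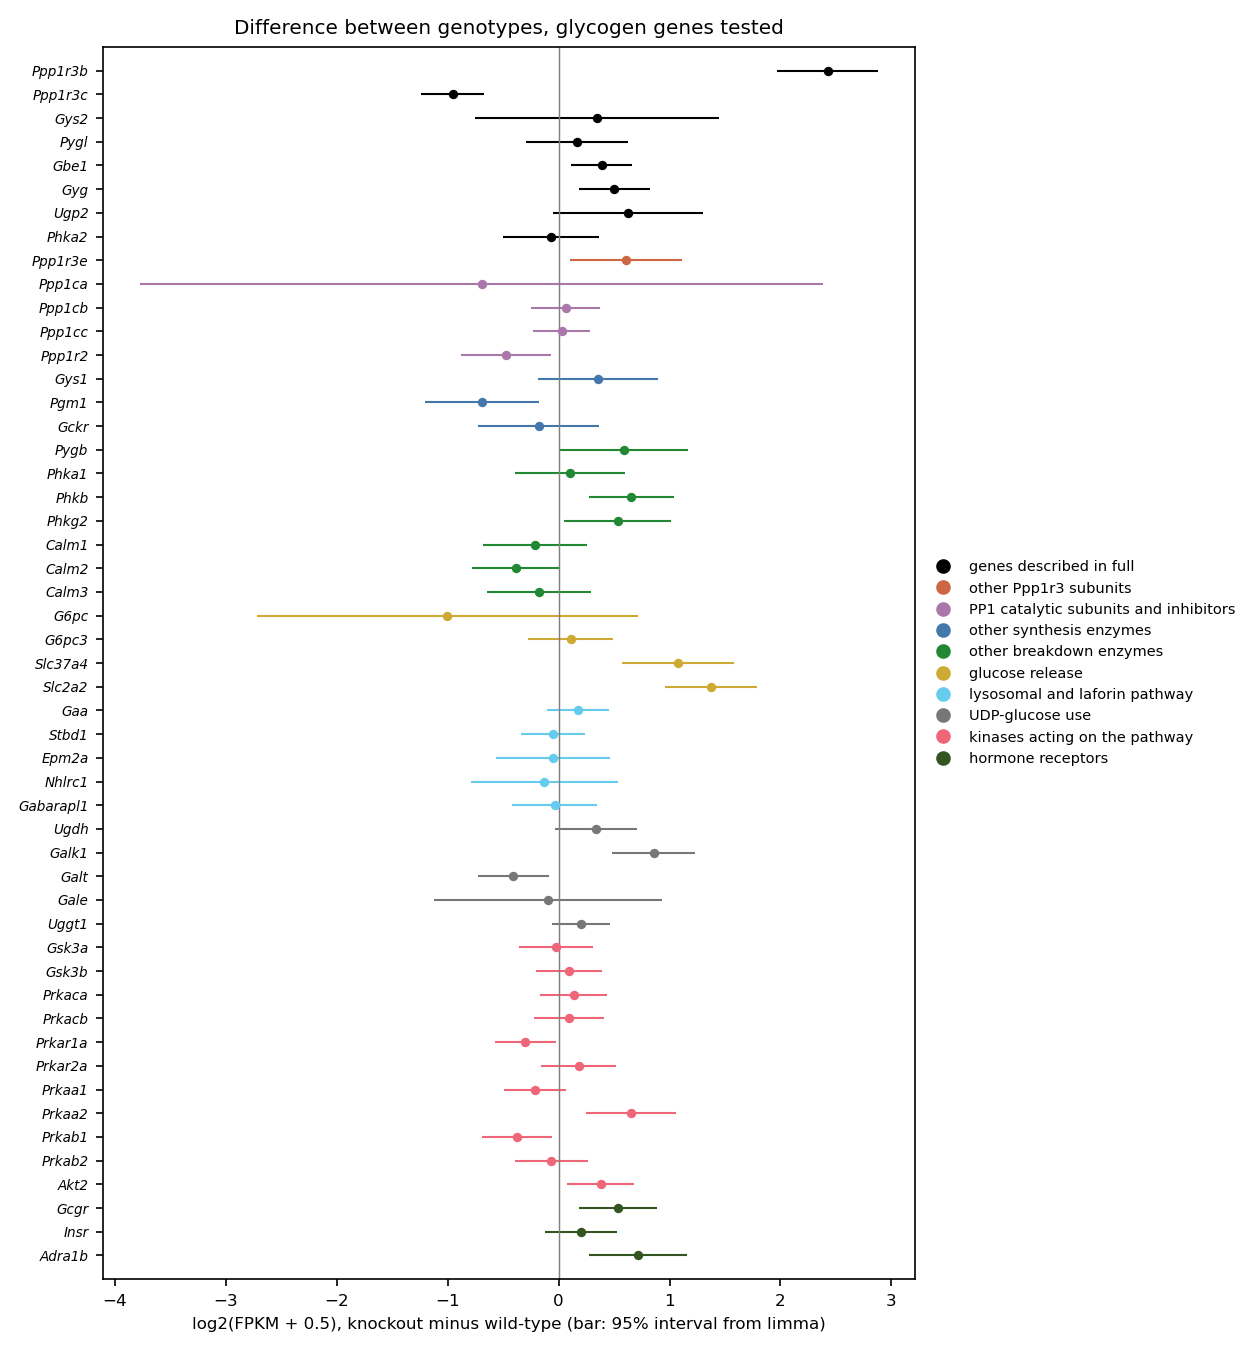
Difference in log2(FPKM + 0.5), knockout minus WT (x axis), for the 8 glycogen genes that entered the fit (black) and 43 other genes of the pathway (colours by role), with limma's 95% interval as bars. Ppp1r3b at 2.43 is the farthest point to the right, Slc2a2 at 1.37 follows, and G6pc at -1.004, with a wide interval, and Ppp1r3c at -0.96 are the farthest to the left.

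In bulk liver RNA, a different number of cells of a type and a different amount of RNA per cell cannot be told apart. Kdm6a was at 3.40 and 3.85 FPKM in the WT and 2.20 and 2.12 FPKM in the KO pools (limma adjusted p = 0.0715), lower as labelled, although 1 value for the whole gene does not resolve which exons were lost. Alb, the albumin gene, was at 21955 to 29597 FPKM in the 4 pools, and 0 of 10 hepatocyte markers passed the test. Among markers of other cells, 8 of 10 neutrophil markers entered the fit, all lower in KO pools without overlap, and 4 passed. The summed level of the 10 was 119 to 181 FPKM in WT and 36.5 to 39.9 FPKM in KO pools, most of it S100a8 and S100a9. That sum was lower in KO pools without overlap, as was Ppp1r3c, while Ppp1r3b was higher. Among all genes tested, the groups did not overlap for 61.5%. Ly6g overlapped between groups. Camp went the other way, at 0.156 and 0 FPKM in WT and 0.518 and 1.00 FPKM in KO pools. Of 6 cholangiocyte markers, 3 entered the fit and Sox9 fell. Their summed level was 102 to 263 FPKM in WT and 17.5 to 38.8 FPKM in KO pools, most of it Spp1, which was at 246.5, 89.6, 33.7 and 12.9 FPKM in the 4 pools and did not pass (limma adjusted p = 0.0858). Krt19, Epcam and Cftr overlapped between groups, and Krt7 was under 0.3 FPKM throughout. No Kupffer cell, sinusoidal endothelial or stellate cell marker passed. The 7 endothelial markers summed to 67.4 and 65.6 FPKM in WT and 50.8 and 51.2 FPKM in KO pools. Of them 3 were lower in KO pools without overlap and 4 overlapped, and of 7 stellate cell markers 3 were lower, 1 higher and 3 overlapped. Beside them, 29.9% of all genes tested were lower without overlap. Of 7 lymphocyte markers, 0 entered the fit. Of 7 skeletal muscle markers, Acta1 and Myh1 were at 0 and the sum was 0.576 to 1.31 FPKM in each pool. Of 6 adipocyte markers, 2 entered the fit and neither passed, and the summed level was 107 to 143 FPKM in WT and 71.5 to 77.7 FPKM in KO pools. Most of that sum was Cidec, at 116 ± 24.9 and 68.2 ± 6.46 FPKM, and Fabp4 was at 8.61 ± 0.972 and 6.26 ± 2.12 FPKM, both lower in KO pools without overlap. Adipoq, the defining marker of the list, was at 0 in 3 pools and at 0.0812 FPKM in KO pool 1. Plin1, Lep and Retn reached at most 0.102, 0.0522 and 0.111 FPKM. Whether the Cidec and Fabp4 reads came from adipocytes was not tested. The part of the neutrophil, cholangiocyte, sinusoidal endothelial, stellate cell and adipocyte markers in the levels of the glycogen genes was not tested.

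By a distance over the 4 pools, in values centred per gene, the closest of 5941 protein-coding genes averaging 5 FPKM or more were Apol7a, Cyp7b1 and Adh4 for Ppp1r3b, at 0.40, 0.43 and 0.45. Those for Ppp1r3c were Map3k3, Frmd4b and Rabgef1, at 0.04, 0.07 and 0.08, and Map3k3 was at 15.9 and 16.2 FPKM in WT and 7.60 and 8.74 FPKM in KO pools. For Ppp1r3g they were Zfp131, Sirt1 and Myl12a, at 0.16, 0.24 and 0.27. With 4 pools, many genes with a like shift lie close, so the names describe a pattern only.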

How the data were processed

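Liver RNA was selected on poly-T beads and sequenced, per the labels' protocols, in 2 wild-type and 2 knockout libraries. The authors deposited 1 table of FPKM with gene lengths, in which each library has a column of its own. Per the submitters' processing notes, the tools and builds named are HISAT2 2.0.5, a read aligner, and mm10 with GRCm38.p6. Not given in the sources used here are the counting program, annotation release and strand setting. FPKM times gene length gave whole multiples of 1 step for 100% of values above 0, within 0.01 of a read, and these recovered reads summed to 16330451 to 17804730 a library. Recovered reads of the 2 pools of a group differed far beyond counting noise (chi-square per gene of 35.3 in wild-type and 29 in knockout), so none is a repeated library. Labels do not say how mice were divided into pools. P-values set the group difference against the spread between pools, estimated in part from other genes, and not against the spread between mice.

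The test was on log2(FPKM + 0.5), which understates changes of low genes, in limma 3.58.1 (R 4.3.3; lmFit, eBayes with trend; 2 residual and 2.59 prior degrees of freedom) over 11900 genes averaging 1 FPKM or more. P-values are two-sided, with Benjamini-Hochberg adjustment over all of them and a threshold of 0.05. Tested on simulated data with known changes, the fit found nearly all of the larger changes and most of the smaller ones. The share of false calls was above the nominal threshold in every simulated set. Every simulated gene was given the same dispersion, which real genes need not share, so the share of changes found does not carry over to these pools. The genes, lists and tests were chosen with earlier results of these data known. Named were the 9 genes, every other pathway gene past the threshold, a set of pathway genes whatever their p, the 3 closest profiles of each Ppp1r3 gene among the 9, Kdm6a and Alb. Of the other pathway genes, 3 that this rule names enter the counts but are not reported here. Of the 9 genes, 5 overlap another listed gene (6 in all), none of which exceeded 7 reads in a pool. Alternatives are given in the closing section. Figures used matplotlib 3.10.9.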

Additional observations from a re-analysis of the deposited data

How the results depend on the processing

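The 564 genes past the threshold became 280 without the trend, 1110 with limma voom on recovered reads, 1014 among protein-coding genes alone, 310 with a replicate block and 0 with no filter on low values (where 26643 genes were tested), and 0 to 234 without any 1 library (30 without WT pool 1, 0 without WT pool 2, 5 without KO pool 1 and 234 without KO pool 2). Where limma left 0, unadjusted p was under 0.05 for 4388 genes with no filter and 2662 without WT pool 2. The 3 calls among other glycogen genes became 1 at a pseudocount of 0.1, 1 without the trend, 6 with voom, 5 among protein-coding genes, 1 with the replicate block, 0 with no filter and 0 to 2 without any 1 library (2 without KO pool 2, otherwise 0, where 13, 15 and 8 had an unadjusted p under 0.05 without WT pool 1, WT pool 2 and KO pool 1, and 15 with no filter). The cause was not tested. Rescaled to recovered reads, 211 genes were higher and 255 lower, against 190 and 374. Pools with the same number share only a number: their deviations correlated at -0.14 over genes. Paired crosswise, an alternative chosen after seeing the data, 552 genes and 2 of the other glycogen genes passed. Ppp1r3b and Ppp1r3c kept their signs in 16 of 16 alternatives. The call of each was lost with no filter, and that of Ppp1r3c also with the replicate block. The signs of Gbe1, Gyg and Ugp2 held in all 16, 15 and 16 run. These genes were chosen from this contrast and the alternatives reuse its pools, so nothing is read from what held. Not past the threshold in the first place, Ppp1ca turned to 0.75 without WT pool 1 and 0.31 without KO pool 1 (range -2.14 to 0.75), Ppp1cb to -0.0192 without WT pool 1 (-0.0192 to 0.145) and Stbd1 to 0.00750 without KO pool 1 (-0.108 to 0.00750) and 0.0129 when rescaled to recovered reads. On reads not divided by length, Ppp1r3b was 25.1% and 77.02% of the family in wild-type and knockout pools, against 12.9% and 59.3% of the FPKM.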
